A study of Mus musculus with 31 samples.

Results

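The 32 genes described here encode the subunits of heterotrimeric G proteins, the proteins that pass a signal from a receptor in the cell membrane to enzymes and ion channels inside the cell. They were taken by name from the table of CPu (caudate putamen, the dorsal striatum) expression, which lists 52636 Ensembl gene identifiers, and comprise 15 alpha, 5 beta and 12 gamma subunit genes. All 32 were found. No measured value entered the rule, but the members were chosen with earlier results of these data known.

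Each G protein holds an alpha subunit, which binds GTP and decides which enzyme is reached, and a beta and a gamma subunit, which stay together as a dimer and signal on their own. Alpha subunits fall into the Gs family, which activates adenylyl cyclase, the Gi family, which inhibits it or acts through the dimer, the Gq family, which activates phospholipase C beta, and the G12 family, which acts on the cytoskeleton. Striatal projection neurons are known for Golf (*Gnal*), which takes the place of Gs (*Gnas*) in coupling dopamine D1 and adenosine receptors to adenylyl cyclase, and for the gamma subunit *Gng7*, with which Golf assembles.

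CPu punches came from 31 mice labelled female, 8 to 11 weeks old, with the strain given as C57BL/6NTac-Brd1 for all of them, and every mouse was a separate library. Groups were WT and Brd1+/- mice administered vehicle (subcutaneous saline, n = 8 and n = 7) or the tricyclic antidepressant imipramine (IMN) at 10 mg/kg (n = 8 and n = 8). Brd1+/- mice carry a heterozygous targeted deletion within *Brd1*, a gene for a chromatin regulator, in every cell and not in one cell type. All groups, vehicle included, went through 2 injections and the tail suspension, open field and forced swim tests, and were sacrificed 1 h after the last, so no group shows untested animals. Values are TPM, in which read counts are divided by transcript length and each mouse is brought to one total. Levels can therefore be compared between genes, but TPM do not give the depth of each library. Differences were tested with limma on log2(TPM + 1) over every gene that exceeded 0.1 TPM in 7 or more of the mice in that fit, and DEG below means nominally significant at p under 0.01, the threshold used in the study, while adjusted p are over all genes in the fit. Log2 differences are on this log2(TPM + 1) scale, which understates the change of genes with low TPM.

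The labels were checked before the subunits were compared. Under vehicle, *Brd1* measured 22.5 ± 2.97 TPM in WT (SD, n = 8) and 13.4 ± 2.02 TPM in Brd1+/- mice (SD, n = 7). Under IMN it measured 19.9 ± 2.67 TPM and 12.8 ± 1.04 TPM (SD, n = 8 each). The mean log2(TPM + 1) of 10 striatal neuron markers was 8.11 to 9.02 in the 23 mice of the other 3 groups, and 3.42 to 9.001 in vehicle administered WT mice. The mean of 10 cortical neuron markers was 4.71 to 6.25 in WT vehicle mice 1, 2, 3, 4, 5 and 7, and at most 1.2 in WT vehicle mice 6 and 8. In WT vehicle mouse 2 the cortical mean of 6.25 was above the striatal mean of 3.42, which goes against its label as CPu. WT IMN mice 5 and 8 had cortical means of 4.86 and 4.49. None of the 20 markers was at 0 throughout a group. WT vehicle mouse 7 had a summed TPM of 26.8 over 4 Y-linked genes, where the other 30 mice had at most 0.188, which goes against its label as female. In bulk tissue, fewer cells of a type and less RNA per cell cannot be told apart.

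Levels covered a wide range. Over the 31 mice, *Gnao1* had the highest median of the alpha subunits (663 TPM, 476 to 744), ahead of *Gnal* (393 TPM) and *Gnas* (309 TPM). *Gnb2* led the beta subunits (445 TPM, 299.9 to 576), with *Gnb5* (244 TPM) and *Gnb1* (226 TPM) close to each other behind it. *Gng7* had the highest median of all 32 genes (677 TPM) and the widest range of the gamma subunits, from 35.4 to 929 TPM, with *Gng3* next (159.5 TPM). The ranges of *Gnal* and *Gnas*, and of *Gnb5* and *Gnb1*, overlapped widely.

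At the other end stood the subunits known from the eye. *Gnat1* (rod transducin), *Gnat2* (cone transducin), *Gnb3* and *Gngt1* (rod gamma) had a median of 0 TPM, and the highest value of these 4 genes in any mouse was 0.466 TPM, for *Gnb3*. *Gna14* of the Gq family had a median of 0.102 TPM, and *Gna15*, known from blood cells, 1.23 TPM. *Gngt2* (cone gamma) and *Gng8*, known from olfactory neurons, were low but measured, with medians of 2.84 and 3.34 TPM. Of the 32 genes, 28 passed the filter on low TPM in each comparison of a pair of groups, and 29 in the interaction, where *Gnb3* passed too. *Gnat1*, *Gnat2* and *Gngt1* were tested in no comparison.

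Some members lie beside each other in the genome, and in 5 such pairs less than 100 kb apart both were measured. *Gnat2* and *Gnai3* are 5.85 kb apart on chromosome 3, *Gngt1* and *Gng11* 6.47 kb apart on chromosome 6, *Gnai2* and *Gnat1* 39.11 kb apart on chromosome 9, *Gna15* and *Gna11* 4.5 kb apart on chromosome 10, and *Gnaq* and *Gna14* 48.3 kb apart on chromosome 19. In each pair 1 gene was expressed, at a median of 11.5 TPM or more, and its neighbour was at 1.23 TPM or less. Other annotated genes overlap members on the opposite strand, among them *Bscl2* at *Gng3*, with a median of 49.0 TPM, and *Nespas* at *Gnas*, with 0.163 TPM. At *Gnaq*, the pseudogenes *Gm10819* and *E030024N20Rik* on the opposite strand had medians of 105.8 and 53.4 TPM. Both were above the median of *Gnaq* itself, 39.0 TPM. No source used here says whether reads were assigned by strand, so reads of such partners could be shared.

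Promoter sequence is shown for the beta and gamma pairs whose differences had opposite signs below, *Gnb5* with *Gnb1* and *Gng7* with *Gng13*, so that their base composition can be compared. Entries were present for 24 of the 32 members in the RefSeq table (GRCm38.p6, 250 bases before each start), and bases inside an annotated untranslated region were left off. For *Gng7* and *Gng13*, with 2 starts each, the window of the most upstream start is shown. Capitals mark 3 motifs. The letters GGGCGG are known as the GC box. The letters TATAAA are known as the TATA box. The letters TGACG are the core of a cAMP response element. Each was searched on both strands, so a motif on the other strand reads as its reverse complement.
*Gnb5*, chr9:75306038-75306287, plus strand: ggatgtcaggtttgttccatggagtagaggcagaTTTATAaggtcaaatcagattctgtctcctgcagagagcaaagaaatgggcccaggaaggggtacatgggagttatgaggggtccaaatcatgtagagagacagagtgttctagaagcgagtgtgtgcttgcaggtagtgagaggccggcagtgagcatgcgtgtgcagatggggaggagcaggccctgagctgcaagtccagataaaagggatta
*Gnb1*, chr4:155491111-155491360, plus strand: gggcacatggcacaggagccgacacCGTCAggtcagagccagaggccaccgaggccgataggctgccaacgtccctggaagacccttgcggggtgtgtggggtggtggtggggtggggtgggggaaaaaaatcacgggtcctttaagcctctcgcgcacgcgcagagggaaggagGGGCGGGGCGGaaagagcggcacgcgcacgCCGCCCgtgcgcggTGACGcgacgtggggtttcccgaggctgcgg
*Gng7*, chr10:81014946-81015175, minus strand: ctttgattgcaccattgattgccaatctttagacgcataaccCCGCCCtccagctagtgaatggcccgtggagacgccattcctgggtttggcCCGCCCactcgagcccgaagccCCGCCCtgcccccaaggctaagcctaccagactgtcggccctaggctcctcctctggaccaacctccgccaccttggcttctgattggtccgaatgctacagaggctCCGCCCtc
*Gng13*, chr17:25716922-25717170, plus strand: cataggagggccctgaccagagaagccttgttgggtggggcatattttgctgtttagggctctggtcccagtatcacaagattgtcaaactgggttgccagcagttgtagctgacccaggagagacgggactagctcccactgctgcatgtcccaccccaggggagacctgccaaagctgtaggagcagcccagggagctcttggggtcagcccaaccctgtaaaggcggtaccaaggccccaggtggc

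The windows differed in composition. *Gnb1* held 26 CpG dinucleotides, 3 GC boxes, of which 2 share 1 base, and 2 TGACG, and *Gng7* held 12 CpG and 4 GC boxes in 230 bases. *Gnb5* held 3 CpG and 1 TATA box, which lies 216 bases before the start, and *Gng13* held 2 CpG and none of these motifs. The median of the 32851 windows in the table was 6 CpG (quartiles 2 and 16). GGGCGG was in 32.7% of those windows and in 14 of the 24 members, TGACG in 17.8% and in 4 members, and TATAAA in 12.4% and in 3 members, where members with several starts counted if any window held the motif. *Gnb5* and *Gng7* were among 8 of the 28 subunits tested with a positive log2 difference in vehicle administered Brd1+/- mice, and *Gng7* was not a DEG. The windows of *Gnb5* and *Gng7* were not alike in CpG content. A match is a description of letters and not a site.

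The first comparison asked which subunits differ with genotype under vehicle. In vehicle administered Brd1+/- mice, 9 of the 28 subunits tested were DEGs compared to vehicle administered WT mice, against 13.6% of the 23200 genes tested. Lower were 8 subunits, *Gnas*, *Gnai1*, *Gnaz*, *Gna11*, *Gng2*, *Gng3*, *Gng4* and *Gng13*, against 12.1% of genes lower, and higher was 1 subunit, *Gnb5*, against 1.47% of genes higher. By class these were 4 of 13 alpha, 1 of 4 beta and 4 of 11 gamma subunits. None passed an FDR of 5%, where 0% of all genes did. The median log2 difference of the 28 subunits was −0.28, where that of all genes tested was −0.13. With median-of-ratios scaling or quantile normalization, which move the median of all genes to 0.00 and 0.01, the DEGs were 2 higher and 7 lower, with *Gnal* among the higher genes and *Gna11* no longer a DEG, against 9.21% and 9.53% of all genes.

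**Figure D1:**
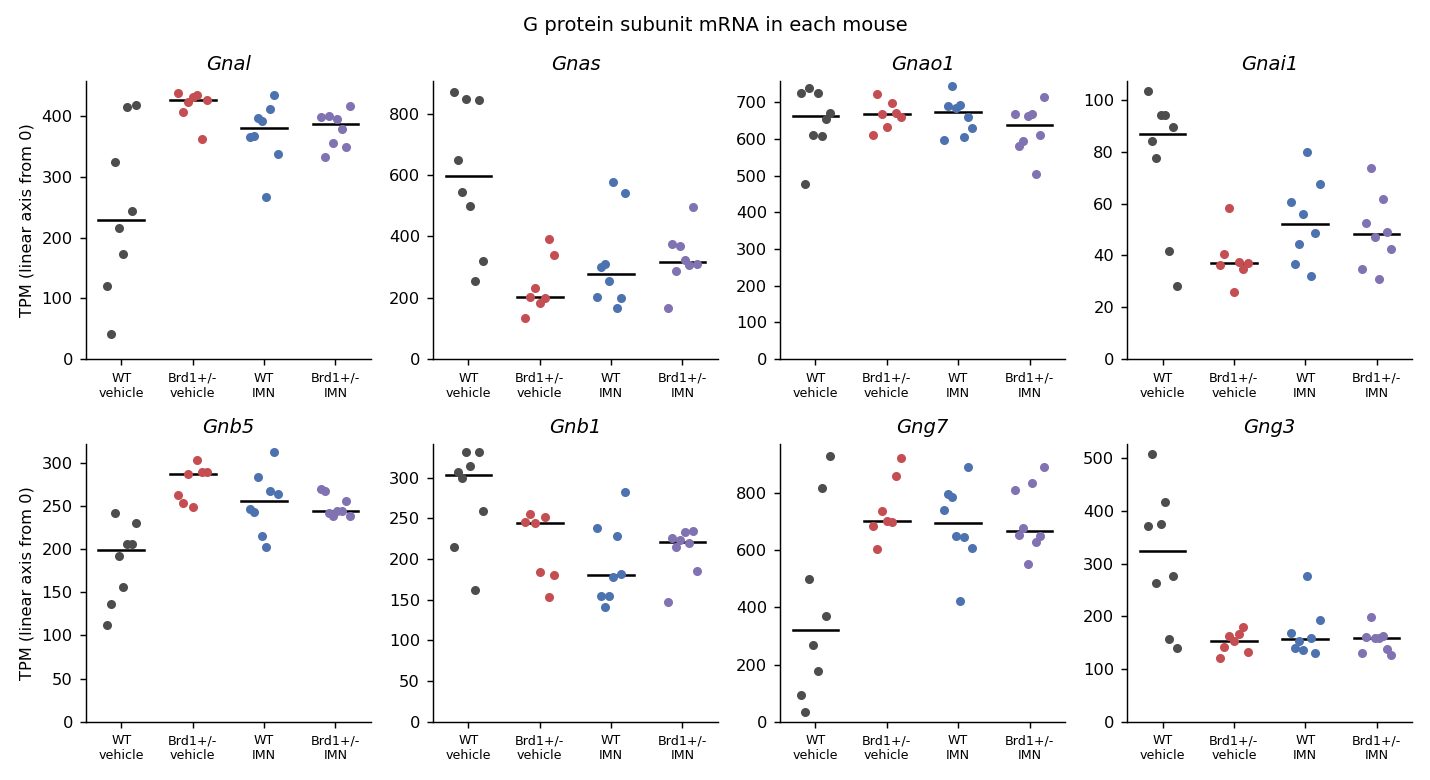
TPM of 8 subunit genes (linear axis from 0) in each of 31 mice, 1 point per mouse, with the group median as a line. In WT vehicle mice *Gnal* and *Gng7* ran down to 40.5 and 35.4 TPM and *Gnas* up to 869 TPM, while *Gnb5* of all 7 Brd1+/- vehicle mice lay above all 8 WT vehicle mice.

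Within the Gs family the 2 genes had differences of opposite sign, and only *Gnas* was a DEG. *Gnas* (chr2:174284320-174346744), the ubiquitous stimulator of adenylyl cyclase, had 254, 597 and 869 TPM as lowest, median and highest value in vehicle administered WT mice and 134, 202 and 392 TPM in vehicle administered Brd1+/- mice. WT vehicle mice 6 and 8, at 254 and 319 TPM, lay within the Brd1+/- values, and the other 6 above all of them. *Gnas* was lower in Brd1+/- mice by a log2 difference of −1.29 (SE 0.29, 95% interval −1.90 to −0.68, limma adjusted p = 0.0556), or −1.16 relative to the median gene. It remained a DEG with either marker mean as a covariate, at −0.79 with the cortical and −1.003 with the striatal markers. In both of these fits 0 subunits passed an FDR of 5%.

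*Gnal*, the Golf gene, had 40.5, 229.7 and 418 TPM in vehicle administered WT mice and 361, 427 and 438 TPM in vehicle administered Brd1+/- mice. Here the same 6 WT mice lay below all 7 Brd1+/- mice, and mice 6 and 8, at 416 and 418 TPM, among them. The log2 difference of 1.06 (SE 0.38, 95% interval 0.25 to 1.87) did not reach the threshold (limma adjusted p = 0.0842). Without WT vehicle mouse 2 *Gnal* was a DEG (0.73, limma adjusted p = 0.0887), 1 of 7 subunits in that fit, against 10.3% of all genes. It was 0.44 with the cortical and 0.10 with the striatal marker mean as a covariate, with adjusted p of 0.679 and 0.643. In WT vehicle mouse 2, with the lowest striatal marker mean, *Gnal* was at its lowest value of 40.5 TPM.

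The ratio of the 2 genes was taken within each mouse, as the difference of their log2(TPM + 1). The mean log2 *Gnal*/*Gnas* ratio under vehicle was −1.47 ± 1.57 in WT mice (SD, n = 8), that is more *Gnas* than *Gnal*, and 0.88 ± 0.60 in Brd1+/- mice (SD, n = 7), that is more *Gnal*. The 6 WT mice with high cortical markers had ratios of −3.97 to −0.74, and mice 6 and 8 had 0.71 and 0.39. The difference of 2.34 passed an exact permutation test (two-sided, p = 0.00326, adjusted p = 0.0163 over 25 ratio tests). In shares of all alpha subunit TPM, *Gnas* took 30.1% ± 9.63 and *Gnal* 13.0% ± 8.55 in WT mice (SD, n = 8), and 14.3% ± 4.64 and 25.3% ± 2.90 in Brd1+/- mice (SD, n = 7).

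Of the Gi family, *Gnai1* and *Gnaz* were lower in Brd1+/- mice and *Gnao1* was not a DEG. *Gnai1* (chr5:18265135-18360355), an inhibitor of adenylyl cyclase, had 28.2, 86.8 and 103 TPM in WT and 26.0, 37.1 and 58.4 TPM in Brd1+/- vehicle mice. The 6 WT mice lay above every Brd1+/- mouse, with a log2 difference of −0.89 (SE 0.25, limma adjusted p = 0.0556), which was −0.39 (adjusted p = 0.424) with the cortical covariate. *Gnaz* (chr10:74967177-75016907), the Gi family member that pertussis toxin does not modify, had 23.7, 41.1 and 45.8 TPM in WT and 22.3, 26.1 and 26.6 TPM in Brd1+/- vehicle mice. Its log2 difference of −0.55 (SE 0.13, limma adjusted p = 0.0556) was −0.30 (adjusted p = 0.278) with the cortical and −0.35 (adjusted p = 0.58) with the striatal covariate.

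*Gnao1* (chr8:93809966-93969388), the Go subunit and the most abundant alpha subunit, had 476, 662 and 739 TPM in WT and 611, 668 and 721 TPM in Brd1+/- vehicle mice. The groups overlapped throughout, and the log2 difference of 0.04 had a 95% interval of −0.15 to 0.24 (limma adjusted p = 0.78). *Gnai2* and *Gnai3* had log2 differences of −0.34 (adjusted p = 0.129) and −0.18 (adjusted p = 0.373), neither past the threshold.

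Among the Gq and G12 families 1 of 6 subunits tested was a DEG, which is near the 13.6% of all genes. *Gna11* (chr10:81528724-81545190), which activates phospholipase C beta, had 53.6, 65.5 and 71.1 TPM in WT and 48.3, 55.7 and 60.8 TPM in Brd1+/- vehicle mice. Its log2 difference of −0.22 (SE 0.08, limma adjusted p = 0.0731) was −0.09 relative to the median gene, and it was a DEG in 4 of the 15 fits that left out 1 mouse. Its close relative *Gnaq* had a log2 difference of −0.45 that missed the threshold (limma adjusted p = 0.0781). The *Gnaq*/*Gna11* ratio did not differ past the threshold (exact permutation test, p = 0.118, adjusted p = 0.21). *Gna14*, *Gna15*, *Gna12* and *Gna13* had differences of 0.09, −0.04, −0.34 and −0.14, each with an unadjusted p of 0.132 or more.

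The beta subunits held the one gene that separated the genotypes completely. *Gnb5* (chr9:75306288-75345876), the divergent beta subunit that pairs with RGS proteins of the R7 family, had 112, 199 and 242 TPM in WT and 249, 287 and 303 TPM in Brd1+/- vehicle mice. No WT value reached the lowest Brd1+/- value, and WT vehicle mice 6 and 8, at 206 and 229.8 TPM, were below it too. *Gnb5* was higher by 0.61 (SE 0.14, 95% interval 0.31 to 0.92, limma adjusted p = 0.0556), and by 0.45 with the cortical and 0.34 with the striatal covariate (adjusted p of 0.321 and 0.58).

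*Gnb1* (chr4:155491361-155559269), a widespread beta subunit, had 163, 304 and 332 TPM in WT and 154, 245 and 255 TPM in Brd1+/- vehicle mice, a log2 difference of −0.35 that missed the threshold (adjusted p = 0.159). The log2 *Gnb5*/*Gnb1* ratio was −0.59 ± 0.51 in WT (SD, n = 8) and 0.37 ± 0.33 in Brd1+/- vehicle mice (SD, n = 7), a difference of 0.96 (exact permutation test, two-sided, p = 0.00202, adjusted p = 0.0126). The 6 WT mice with high cortical markers had ratios of −1.16 to −0.31, and mice 6 and 8 had 0.34 and −0.17. No ratio was tested with a marker covariate. *Gnb2* (chr5:137528127-137533510), the most abundant beta subunit, had 299.9, 410.1 and 576 TPM in WT and 400.1, 472 and 529 TPM in Brd1+/- vehicle mice. Its log2 difference of 0.15 had a 95% interval of −0.11 to 0.41 (adjusted p = 0.426), and *Gnb4*, at 13.1 TPM over all mice, had −0.42 (adjusted p = 0.348).

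Gamma subunits showed the widest spread. *Gng3* (chr19:8836933-8839194), a neuronal gamma subunit, had 139, 324 and 508 TPM in WT and 121, 153 and 179.5 TPM in Brd1+/- vehicle mice, with 6 WT mice above all Brd1+/- mice. It was lower, with a log2 difference of −0.94 (SE 0.24, limma adjusted p = 0.0556), which was −0.43 (adjusted p = 0.228) with the cortical and −0.47 (adjusted p = 0.58) with the striatal covariate. *Gng13* (chr17:25717171-25719406), known from taste cells and retinal bipolar cells, had 61.0, 102 and 159 TPM in WT and 40.7, 48.4 and 62.9 TPM in Brd1+/- vehicle mice. Of the WT mice 7 lay above every Brd1+/- mouse. Its difference of −0.87 (SE 0.18, limma adjusted p = 0.0556) was −0.55 and −0.51 with the cortical and striatal covariates (adjusted p of 0.169 and 0.58).

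*Gng2* and *Gng4* showed the same division of the WT mice more steeply. *Gng2* (chr14:19872559-19977627), a common partner of *Gnb1* in the brain, had 11.0, 81.9 and 125 TPM in WT and 12.6, 20.03 and 26.5 TPM in Brd1+/- vehicle mice, a log2 difference of −1.50 (SE 0.47, limma adjusted p = 0.0632). In WT vehicle mice 6 and 8 it was 13.7 and 11.0 TPM and in the other 6 mice 62.5 TPM or more. *Gng4* (chr13:13784059-13827896) had 8.37, 24.3 and 40.2 TPM in WT and 7.78, 10.4 and 12.8 TPM in Brd1+/- vehicle mice, a difference of −0.94 (SE 0.30, limma adjusted p = 0.0632). *Gng2* had a difference of −0.48 (adjusted p = 0.466) with the cortical covariate, and each of these genes was a DEG in 6 of the 15 fits without 1 mouse.

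*Gng7* (chr10:80948624-81014945), the partner of Golf, had 35.4, 319 and 929 TPM in WT and 606, 704 and 922 TPM in Brd1+/- vehicle mice. The 6 WT mice, at 35.4 to 499 TPM, lay below every Brd1+/- mouse, and mice 6 and 8, at 817 and 929 TPM, did not. The log2 difference of 1.49 (SE 0.55, 95% interval 0.32 to 2.66) missed the threshold (limma adjusted p = 0.0898), and was 0.13 (adjusted p = 0.789) with the striatal covariate. *Gng7* and *Gnal* thus divided the WT mice in the same way, and with the striatal covariate their differences were 0.13 and 0.10.

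Gamma subunit make-up followed. *Gng7* took 36.3% ± 26.2 of all gamma TPM in WT mice (SD, n = 8) and 69.1% ± 3.45 in Brd1+/- vehicle mice (SD, n = 7), and *Gng3* 32.5% ± 15.9 and 14.1% ± 1.83. The log2 *Gng7*/*Gng3* ratio was −0.13 ± 2.21 (SD, n = 8) and 2.29 ± 0.26 (SD, n = 7), a difference of 2.43 (exact permutation test, two-sided, p = 0.0129, adjusted p = 0.038), and *Gng7*/*Gng2* had a difference of 2.99 (p = 0.0137 by the same exact test, adjusted p = 0.038), and neither reached the threshold. In summed TPM the classes were closer, with 1957 ± 279.5 and 1657 ± 106 TPM of alpha, 904 ± 117 and 968 ± 48.9 of beta subunits, and 1017 ± 133 and 1075 ± 118 of gamma subunits in WT (SD, n = 8) and Brd1+/- mice (SD, n = 7). The remaining gamma subunits, *Gng5*, *Gng8*, *Gng10*, *Gng11*, *Gng12* and *Gngt2*, had log2 differences of −0.55 to 0.12, with *Gng12* lowest (adjusted p = 0.152) and the other unadjusted p at 0.198 or more.

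**Figure D2:**
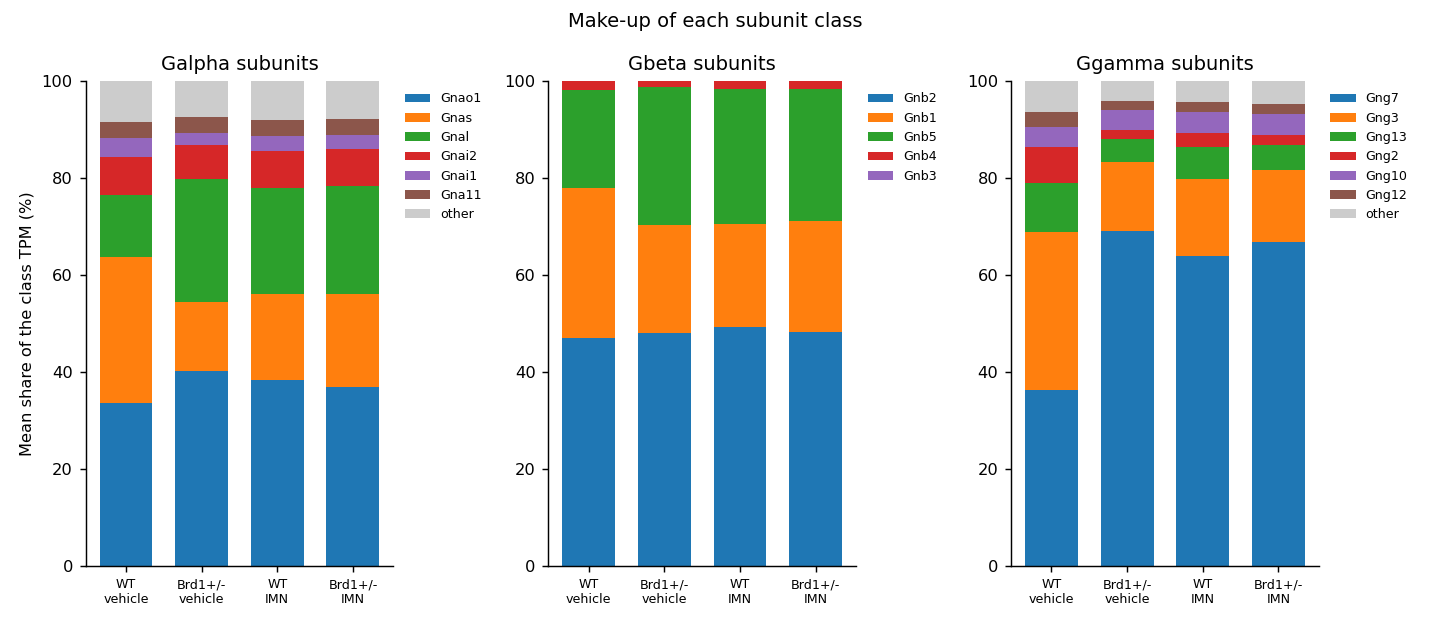
Mean share of the summed TPM of each subunit class (percent, y axis) by group, with the 6 most abundant members named and the rest as other. The WT vehicle group has *Gng7* at a mean of 36.3% of gamma and *Gnas* at 30.1% of alpha TPM, against 63.95% to 69.1% and 14.3% to 19.2% in the other groups, and its mean takes in mice 6 and 8, whose *Gng7* and *Gnas* TPM lie within the Brd1+/- vehicle values or close to them.

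The count of DEGs depended on single WT mice. Without WT vehicle mouse 6 or without mouse 8, 13 subunits were DEGs, all 13 at an FDR of 5%, but 19.9% and 22.4% of all genes were then DEGs too. Both sets held *Gnal*, *Gng7* and *Gnaq* beside the 9 named above. Without WT vehicle mouse 7, the mouse with Y-linked expression, 6 were DEGs, as without WT vehicle mouse 1, 4 or 5 or Brd1+/- vehicle mouse 1 or 4, with 8.89% to 9.97% of all genes in these 6 fits. *Gnai1*, *Gnas*, *Gnaz*, *Gnb5*, *Gng3* and *Gng13* were DEGs in all 15 fits that left out 1 mouse. When the cortical marker mean entered the fit, 5 subunits were DEGs (*Gnas*, *Gnaz*, *Gnb5*, *Gng3* and *Gng13*), against 2.91% of all genes, and when the striatal mean did, 3 (*Gnas*, *Gnb5* and *Gng13*), against 1.29%.

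**Figure D3:**
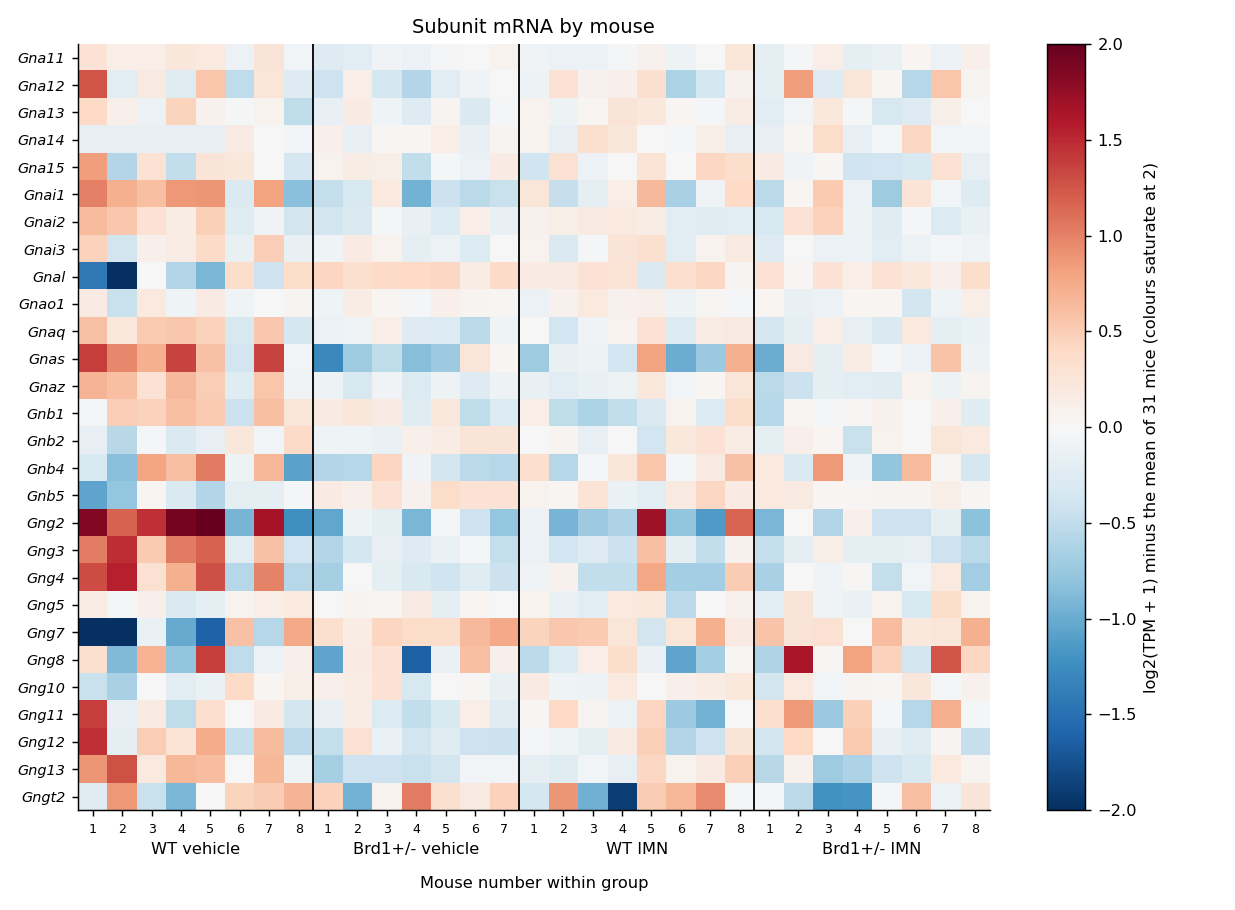
log2(TPM + 1) of the 28 subunits tested, centred on the mean of 31 mice (colour, saturating at 2), with mice as columns by group. WT vehicle mice 1 to 5 and 7 are high in *Gnas*, *Gng2*, *Gng3* and *Gng4* and mice 1, 2, 4, 5 and 7 low in *Gnal* and *Gng7*, while mice 6 and 8 look like the other groups.

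Genes for proteins that act with the G proteins were counted from lists written with earlier results known, and these counts stand against the same 13.6% of all genes. Of 9 adenylyl cyclases 3 were lower in Brd1+/- mice, *Adcy1* (−1.11), *Adcy2* (−1.09) and *Adcy6* (−1.04), with a median over the list of −0.36. Of 10 other effectors 4 were lower, among them *Arhgef1* (−0.88) and the potassium channel subunits *Kcnj3* (−1.14) and *Kcnj9* (−1.34), and *Plcb2* was higher (0.62). Of 5 receptor kinases *Grk2* (−0.82), *Grk3* (−1.06) and *Grk6* (−0.35) were lower.

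RGS proteins speed GTP hydrolysis by alpha subunits. Of 17 tested *Rgs6* (−1.10), *Rgs16* (−1.11) and *Rgs19* (−0.65) were lower and *Rgs2* (0.79) higher. Among the 5 *Gnb5* partners tested, *Rgs6* was lower and the membrane anchor *Rgs7bp* was higher (0.55). *Ric8b*, the chaperone of Gs and Golf alpha subunits, was higher by 0.72 (SE 0.22, limma adjusted p = 0.0586), and *Gprin1* was lower (−1.06), of 13 chaperones and modulators.

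Of the receptors, *Adrb1* (−0.64) was lower of 6 that couple to Gs or Golf, and *Chrm4* was higher (0.78) and *Grm2* lower (−1.69) of 13 that couple to Gi or Go. The counts for chaperones and for both receptor lists are near the share of all genes. The medians of these 2 receptor lists were 0.84 and 0.55. Some receptors and RGS proteins are also striatal markers, so the lists are not separate measurements. Of the 10 striatal markers 2 were DEGs, both higher (*Penk* and *Pdyn*, median of the list 1.63), and of the 10 cortical markers 1 was a DEG, lower (*Emx1*, median −1.99), and the part of this in the differences above was not tested beyond the covariates given.

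The second comparison asked what IMN did in WT mice, and it shares the vehicle administered WT mice with the first. In IMN administered WT mice 5 of 28 subunits were DEGs, against 6.95% of the 23579 genes tested. *Gnas*, *Gnaz*, *Gnb1* and *Gng3* were lower, against 5.60% of genes, and *Gnb5* was higher, against 1.35%. None was among the 0.00424% of genes at an FDR of 5%. The median of the 28 subunits was −0.15, where all genes had −0.08. Of the 10 striatal markers *Pdyn* (1.08) was a DEG and of the 10 cortical markers *Emx1* (−2.02), both with limma adjusted p = 0.141, and the list medians were 1.48 and −2.08. The striatal mean was 3.42 to 9.001 in vehicle and 8.11 to 9.02 in IMN administered WT mice, and the cortical mean 1.04 to 6.25 and 1.26 to 4.86. Of 5 erythrocyte markers *Hba-a1* (−0.55) and *Hba-a2* (−0.57) were lower, of 5 endothelial markers *Cldn5* (−0.33) was lower, and of 3 choroid plexus markers *Kl* (0.40) was higher (limma adjusted p = 0.141 each). The mean log2(TPM + 1) of the erythrocyte markers was 4.76 to 5.52 in vehicle and 4.30 to 5.26 in IMN administered WT mice, that of the endothelial markers 3.23 to 3.59 and 3.25 to 3.54, and none was at 0 throughout a group. The part of the erythrocyte, endothelial and choroid plexus markers in the result was not tested, and fits with the striatal or cortical mean as a covariate are given below.

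*Gnas* had 165, 276 and 578 TPM in IMN administered WT mice, and 4 WT vehicle mice lay above all of these. The difference was −0.94 (SE 0.31, limma adjusted p = 0.141). *Gnb1* had 141, 179.9 and 282 TPM, with 5 WT vehicle mice above all of these, a difference of −0.51 (SE 0.17, limma adjusted p = 0.141). *Gnb1* was the one subunit that was a DEG here and not between the genotypes under vehicle.

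*Gnb5* had 203, 255 and 312 TPM under IMN in WT mice, and 4 of the 8 WT vehicle mice lay below all of these. It was higher by 0.49 (SE 0.15, limma adjusted p = 0.141). *Gng3* (130.2, 156 and 277 TPM) was lower, with a log2 difference of −0.80 (SE 0.25), and *Gnaz* (23.998, 26.6 and 33.3 TPM) was lower too, at −0.40 (SE 0.13), both with limma adjusted p = 0.141. *Gnal* (267, 379.8 and 434 TPM) and *Gng7* (421, 695 and 890.4 TPM) had differences of 0.88 (adjusted p = 0.175) and 1.37 (adjusted p = 0.159), which missed the threshold.

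*Gnai1*, *Gna11*, *Gng2*, *Gng4* and *Gng13*, DEGs between the genotypes, had differences of −0.47, −0.14, −1.19, −0.76 and −0.47 here, with adjusted p of 0.283, 0.245, 0.204, 0.184 and 0.157. *Gnao1* and *Gnb2* had 0.04 and 0.10. Of the within-mouse ratios, *Gnal*/*Gnas* was 0.35 ± 0.85, a difference of 1.82 that missed the threshold (SD, n = 8; exact permutation test, two-sided, p = 0.0118, adjusted p = 0.038), and *Gnb5*/*Gnb1* rose by 0.997, to 0.41 ± 0.38 (SD, n = 8; exact permutation test, p = 0.0014, adjusted p = 0.0126). WT IMN mice 5 and 8, with the highest cortical markers under IMN, had the lowest *Gnal*/*Gnas* ratios of their group, −1.11 and −0.68.

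With either marker mean as a covariate 0 of the 28 subunits were DEGs, and *Gnb5* then had 0.32 (adjusted p = 0.728) with the cortical and 0.24 (adjusted p = 0.849) with the striatal markers. Left out 1 mouse at a time, *Gnb5* was a DEG in 16 of 16 fits, *Gng3* in 11, *Gnas* and *Gnb1* in 5 and *Gnaz* in 4. The count was 8 without WT vehicle mouse 6 and 9 without mouse 8, 2 without mouse 1, 3, 5 or 7, and 1 without mouse 2 or 4. Of all genes 13.6% and 15.3% were DEGs without mouse 6 and mouse 8, and 3.88% to 6.59% without one of the others. Partner genes that were DEGs were *Rgs19* (−0.74), *Adrb1* (−0.55) and *Adora1* (−0.51), which were lower, and *Oprm1* (1.11) and *Grm5* (0.69), which were higher, and 0 of the adenylyl cyclases, other effectors, receptor kinases and chaperones tested.

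**Figure D4:**
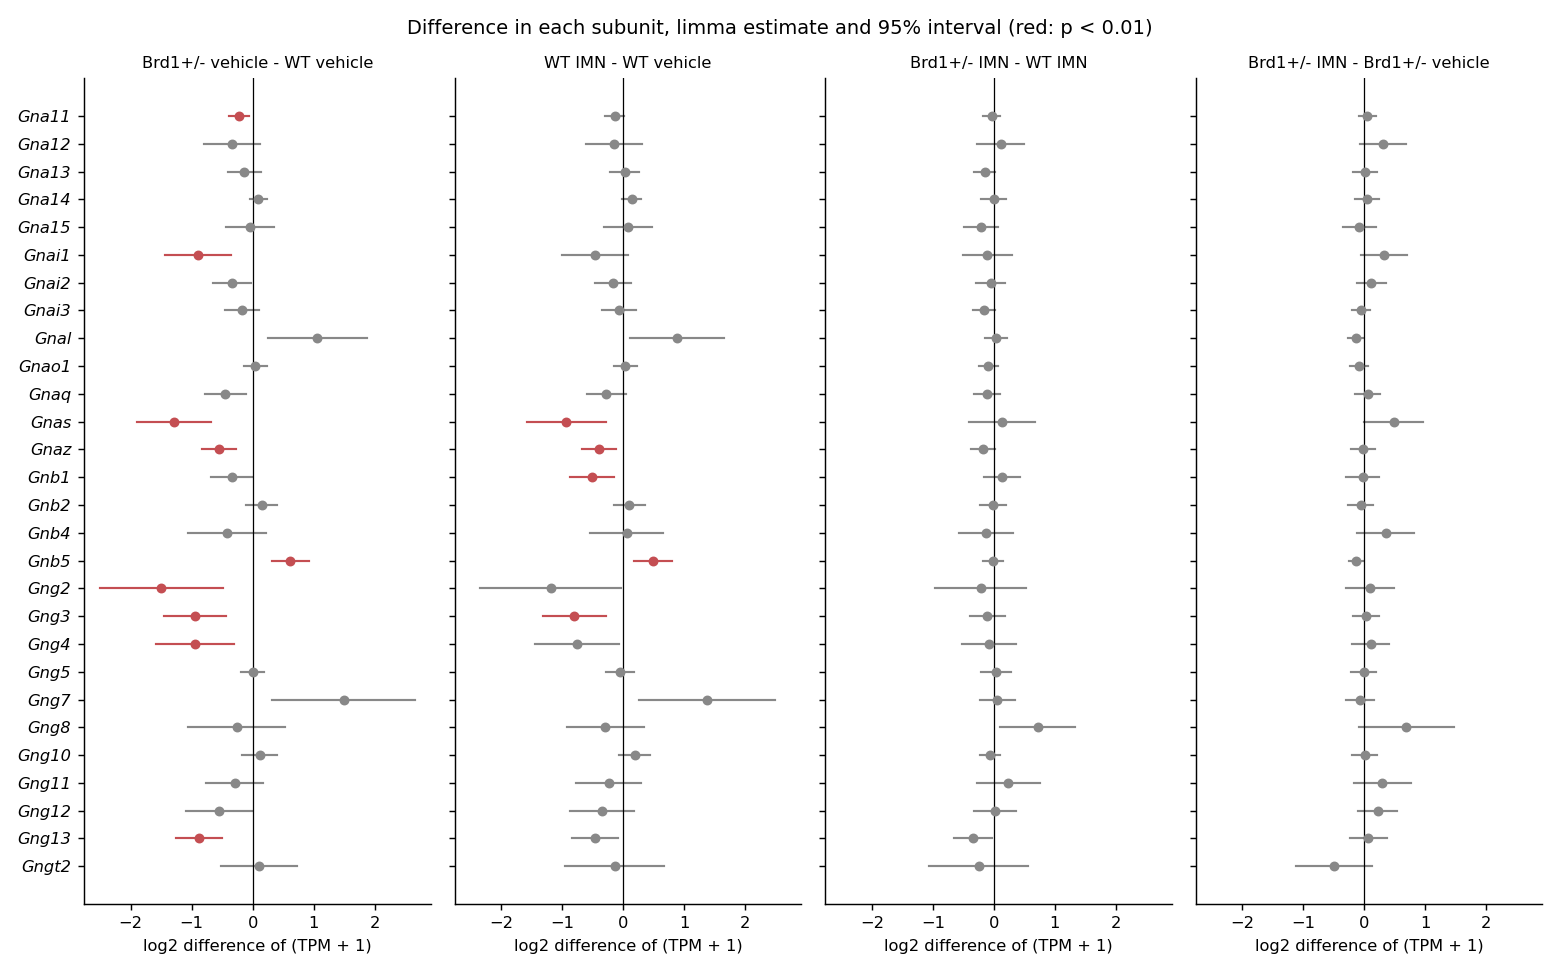
limma log2 differences of the 28 subunits tested (points) with 95% intervals (lines) in the 4 comparisons of a pair of groups, in red where p was under 0.01. The comparisons with vehicle administered WT mice, on the left, hold 9 and 5 DEGs, and those without them, on the right, hold 0.

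Between the genotypes under IMN, 0 of 28 subunits were DEGs by limma, against 0.703% of the 23339 genes tested, and 0 were among the 0.00428% at an FDR of 5%. The lowest p of the subunits were those of *Gng8* (0.72, adjusted p = 0.998) and *Gng13* (−0.34, adjusted p = 0.998), both above the threshold. *Gng8* had 1.03, 2.69 and 4.39 TPM in WT and 1.78, 4.72 and 12.1 TPM in Brd1+/- mice under IMN, with overlap of the groups, and was a DEG (0.87, adjusted p = 0.9999) without Brd1+/- IMN mouse 1. *Gng13* had 54.6, 65.9 and 90.7 TPM and 39.4, 50.5 and 74.7 TPM.

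For the subunits that were DEGs under vehicle, and for *Gnal* and *Gng7*, which were not, the differences under IMN are given here with their intervals. *Gnas* differed by 0.13 (95% interval −0.41 to 0.67), *Gnal* by 0.04 (−0.14 to 0.21), *Gnb5* by −0.01 (−0.17 to 0.15), *Gng3* by −0.11 (−0.39 to 0.18) and *Gng7* by 0.06 (−0.23 to 0.34). *Gng13* had −0.34 (−0.65 to −0.04), an interval below 0, and *Gng2* −0.22 (−0.97 to 0.53), a wide one. *Gnai1* had −0.11 (−0.51 to 0.30), *Gnaz* −0.18 (−0.38 to 0.02), *Gna11* −0.03 (−0.17 to 0.10) and *Gng4* −0.08 (−0.53 to 0.37). Each of these intervals leaves out the difference of the same gene found under vehicle, such as −1.29 for *Gnas*, 0.61 for *Gnb5* and −0.94 for *Gng3*. The differences under vehicle have intervals of their own, which for *Gng7* ran from 0.32 to 2.66. The *Gnal*/*Gnas* ratio was 0.35 ± 0.85 in WT and 0.26 ± 0.52 in Brd1+/- mice (SD, n = 8 each; exact permutation test, p = 0.791), and *Gnb5*/*Gnb1* 0.41 ± 0.38 and 0.26 ± 0.26 (exact permutation test, p = 0.381). In the partner lists 0 genes were DEGs. Of the 5 erythrocyte markers *Alas2* was higher (0.66, limma adjusted p = 0.998).

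IMN in Brd1+/- mice likewise gave 0 DEGs of 28 subunits by limma, against 1.83% of the 23020 genes tested, with 0% at an FDR of 5%. *Gnb5* and *Gnal* had an unadjusted p under 0.05, both lower, with a log2 difference of −0.14 (adjusted p of 0.613 and 0.656). *Gnal* had 332, 387 and 417 TPM under IMN, against 361, 427 and 438 TPM under vehicle, and *Gnb5* 238, 244 and 270.1 TPM against 249, 287 and 303 TPM. For both genes the groups overlapped. The mean of the 10 striatal markers was 8.95 ± 0.0593 under vehicle (SD, n = 7) and 8.78 ± 0.124 under IMN (SD, n = 8), with 1 of the 10 a DEG, *Drd1* (−0.19, limma adjusted p = 0.516), and *Drd2*, *Ppp1r1b* and *Rgs9* at −0.25, −0.26 and −0.20. With the striatal mean as a covariate *Gnal* had −0.06 and *Gnb5* −0.09 (adjusted p = 0.999 each). *Gnas* had 167, 315 and 494 TPM under IMN, a difference of 0.48 (95% interval 0.00 to 0.96, adjusted p = 0.704).

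Several of these values passed the threshold in other fits. *Gnal* was a DEG (−0.15, adjusted p = 0.423) with the cortical covariate and without Brd1+/- vehicle mouse 6 (−0.18, adjusted p = 0.519), *Gnb5* without Brd1+/- vehicle mouse 4 (−0.17, adjusted p = 0.652), and *Gnas* without Brd1+/- IMN mouse 1 (0.61, adjusted p = 0.557). *Gng7* had a difference of −0.07 (adjusted p = 0.937) and was higher (0.27, adjusted p = 0.96) with the striatal covariate. The *Gnal*/*Gnas* ratio was lower under IMN by 0.62, which missed the threshold (exact permutation test, two-sided, p = 0.0536, adjusted p = 0.103).

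Of the partner genes 5 were DEGs, in a comparison with 1.83% of all genes. *Ric8b* was lower (−0.23, SE 0.07, limma adjusted p = 0.408), as was the dopamine receptor *Drd1* (−0.19, SE 0.06, limma adjusted p = 0.516). *Rgs2* was lower (−0.51), *Rgs16* higher (0.54) and *Chrm1* lower (−0.38). The vehicle administered Brd1+/- mice also enter the first comparison, in which *Ric8b*, *Rgs2* and *Rgs16* had 0.72, 0.79 and −1.11.

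The interaction asked whether IMN acted differently in Brd1+/- and WT mice, and is given as the effect of IMN in Brd1+/- mice less that in WT mice. Of 29 subunits tested 3 were DEGs, against 3.74% of the 25394 genes tested, 2 higher (2.97% of genes) and 1 lower (0.780% of genes), with 0% at an FDR of 5%. *Gnas* had an interaction of 1.42 (SE 0.40, 95% interval 0.59 to 2.24, limma adjusted p = 0.261), from −0.94 in WT to 0.48 in Brd1+/- mice. *Gnb5* had −0.63 (SE 0.16, limma adjusted p = 0.261), from 0.49 to −0.14, and *Gng3* 0.83 (SE 0.28, limma adjusted p = 0.261), from −0.80 to 0.03. *Gnal*, at −1.02 (adjusted p = 0.261), and *Gng7*, at −1.43 (adjusted p = 0.263), missed the threshold.

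*Gnas* and *Gnb5* kept a p under 0.01 in all 31 fits that left out 1 mouse, and *Gng3* in 22. Without WT vehicle mouse 6 or 8 the count was 9, against 9.28% and 10.2% of all genes, and without WT vehicle mouse 1, 4 or 5 it was 2, against 2.16% to 2.66%. With the cortical covariate *Gnas* (0.91, adjusted p = 0.756) and *Gnb5* (−0.51, adjusted p = 0.756) were DEGs, and with the striatal covariate 0 subunits were, with *Gnb5* at −0.35 (adjusted p = 0.999) and *Gnas* at 1.06 (adjusted p = 0.999). The ratio *Gnal*/*Gnas* had an interaction of −2.44 (treatment labels permuted within genotype, exact permutation test, p = 0.00157, adjusted p = 0.0126), and *Gnb5*/*Gnb1* one of −1.11 (exact permutation test, p = 0.00139, adjusted p = 0.0126). *Gng7*/*Gng3* had −2.27 (exact permutation test, p = 0.013, adjusted p = 0.038), *Gng7*/*Gng2* −2.72 (p = 0.0247, adjusted p = 0.0561) and *Gnaq*/*Gna11* 0.14 (p = 0.35). Of the partner genes, *Adcy2* (1.08), *Kcnj9* (1.12), *Rgs19* (0.67) and *Grk6* (0.29) had positive and *Ric8b* (−0.64), *Rgs2* (−0.89), *Chrm4* (−0.80) and *Htr1b* (−1.38) negative interactions among the DEGs. The vehicle administered WT mice, the 6 with high cortical markers among them, enter each of these values.

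**Figure D5:**
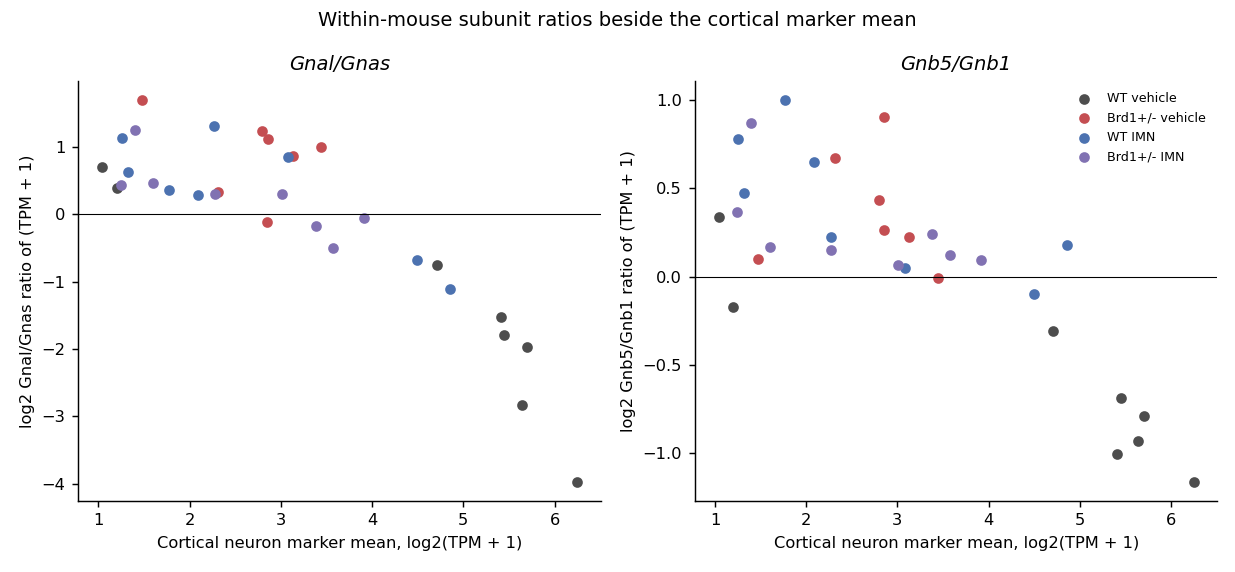
Within-mouse log2 ratios (y axis) of *Gnal* to *Gnas* (left) and *Gnb5* to *Gnb1* (right) against the mean log2(TPM + 1) of 10 cortical neuron markers (x axis), 1 point per mouse. The lowest ratios, down to −3.97 and −1.16, belong to WT vehicle mice with cortical means above 4.7.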

How the data were processed

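RNA from 1 mm punches of the right CPu was sequenced by the authors as single-end reads on a BGISEQ-500, aligned with HISAT2 2.1.0 to GRCm38 and quantified with StringTie 1.3.4. The deposited table holds TPM values per gene and mouse as the authors made them, 1 column for each of the 31 mice, and 0 columns were left unused. The table holds no read counts, so the count test of the study (edgeR) was not applied, and strand use is not given in the sources used here.

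TPM were taken as log2(TPM + 1) and tested with limma 3.58.1 (R 4.3.3, trended empirical Bayes) in each pair of groups, and in all 4 groups for the interaction, over genes above 0.1 TPM in at least 7 mice, with Benjamini-Hochberg adjustment over all genes. Within-mouse ratios were tested by exact permutation (Python 3.11.15, scipy 1.17.1), 25 tests adjusted together, with the threshold at an unadjusted p of 0.01 as for genes. The fit was tested on simulated data. Named in full were subunits with p under 0.01 in any comparison, *Gnal*, *Gnas* and the most abundant member of each class, and up to 4 genes of each partner list with p under 0.01. Members and lists were chosen with earlier results of these data known. Alternatives were another pseudocount, filter, scaling, sample weights, a replicate block, marker covariates, 1 joint fit and leaving out each mouse. Gene positions are from GENCODE M21 (GRCm38), in which 52489 identifiers were found and 147 were not. Some partner genes are not reported here.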

Additional observations from a re-analysis of the deposited data

Results flagged for a closer look

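Single mice stood apart from their group in 3 of the 76 sets of values examined, and chance alone gives about 1 in 20. *Gnal* was lowest in Brd1+/- vehicle mouse 6, at 361.5 TPM, where the gap to the next mouse was 0.623 of the range of the group on the log2(TPM + 1) scale. *Gnao1* was lowest in WT vehicle mouse 2, at 475.8 TPM, with a gap of 0.552 of the range on that scale. The log2 *Gnb5*/*Gnb1* ratio was highest in Brd1+/- IMN mouse 1, at 0.869, with a gap of 0.626 of the range.

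A difference in the effect of IMN between the genotypes had a p under 0.01, the threshold for subunits and ratios alike, for 3 subunits and 2 ratios, and the ratio *Gng7*/*Gng3* (−2.27, exact permutation test, adjusted p = 0.038) missed it. By limma 3.74% of all genes passed, 0 subunits did at an FDR of 5% and 0 with the striatal marker covariate, and the 6 WT vehicle mice with high cortical markers enter each value. The interaction, IMN in Brd1+/- less IMN in WT mice, was 1.42 for *Gnas*, −0.63 for *Gnb5* and 0.83 for *Gng3* (limma, unadjusted p under 0.01, adjusted p = 0.261 each). It was −2.44 for the log2 *Gnal*/*Gnas* ratio and −1.11 for the log2 *Gnb5*/*Gnb1* ratio (exact permutation test, adjusted p = 0.0126 each).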

How the results depend on the processing

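Under vehicle the count of 9 subunits was 16 with sample weights, 5 with the cortical and 3 with the striatal covariate, and 6 to 13 with 1 mouse left out. For IMN in WT mice the count of 5 was 3 after quantile normalization, 13 with weights, 0 with either covariate, 10 in a joint fit of all 4 groups and 1 to 9 with 1 mouse left out. For IMN in Brd1+/- mice the count of 0 was 1 with the cortical covariate (*Gnal*, 2.24% of all genes), 1 with the striatal covariate (*Gng7*, 1.03%), both near the share of all genes, and 0 to 1 with 1 mouse left out. Between genotypes under IMN it was 0 to 1 with 1 mouse left out, and *Gnal* turned to −0.0019 with weights. The interaction count of 3 was 13 with weights, 0 with the striatal covariate and 2 to 9 with 1 mouse left out. Of all genes, 26.5%, 20.3% and 13.6% were DEGs with weights (vehicle, IMN in WT mice, interaction), 2.91%, 1.52% and 1.23% with the cortical and 1.29%, 1.196% and 0.508% with the striatal covariate, and 13.5% in the joint fit for IMN in WT mice. In the joint fit 12 subunits were DEGs under vehicle, with 19.7% of all genes. Under vehicle, where 0 subunits passed an FDR of 5%, 16 did with weights, 12 in the joint fit, 10 with the replicate block and 6 with a mean of at least 1 TPM. The cause was not tested.

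With a replicate block, in which equal replicate numbers are paired, the counts were 11 under vehicle (17.7% of all genes), 2 for IMN in WT mice (5.08%), 1 for IMN in Brd1+/- mice (*Gnas*, 0.48, with 2.15%) and 3 for the interaction (4.28%). The block left *Gnal*/*Gnas* at 2.61 under vehicle and −2.88 for the interaction, and *Gnb5*/*Gnb1* at 1.02, 0.997 (IMN in WT) and −1.26 (interaction), with exact permutation p from 0.0156 to 0.0313, all above 0.01. The 7 pairs with Brd1+/- vehicle mice allow none under 0.0156, while IMN in WT mice has 8 pairs, which allow a smaller p than its 0.0234. Mice of equal number were seldom alike: of 45 pairs 9 had a correlation over 0.1, within −0.395 to 0.409, and 7 matched best with their own number. These correlations take in the differences in cortical markers between mice, so they cannot show whether equal numbers share a litter.

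Taken as group medians, *Gnb5*/*Gnb1* under vehicle differed by 1.0032 (exact permutation test, p = 0.0208), and between genotypes under IMN *Gng7*/*Gng3* and *Gng7*/*Gng2* turned to −0.072 and −0.193. With 1 mouse left out, values between genotypes under IMN ran from −0.302 to 0.0433 for *Gnal*/*Gnas*, −0.0442 to 0.265 for *Gng7*/*Gng3* and −0.0932 to 0.465 for *Gng7*/*Gng2*, and for IMN in Brd1+/- mice from −0.0727 to 0.0522 for *Gnaq*/*Gna11*. Under vehicle *Gng7*/*Gng3* ran from 1.90 to 2.84 and *Gng7*/*Gng2* from 2.56 to 3.57. For IMN in WT mice *Gnal*/*Gnas* ran from 1.46 to 2.13, *Gng7*/*Gng3* from 1.64 to 2.58 and *Gng7*/*Gng2* from 2.13 to 3.14, and for the interaction *Gng7*/*Gng3* from −2.68 to −1.74 and *Gng7*/*Gng2* from −3.30 to −2.29. Without counts, depth set no limit that could be measured.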
